A study of Mus musculus with 4 samples.

Results

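The Id genes encode 4 small nuclear proteins, Id1, Id2, Id3 and Id4, named as inhibitors of DNA binding or of differentiation. All 4 were found by symbol among the 52459 genes listed for the first pharyngeal arch of the mouse embryo, and all 4 were expressed and tested. PolyA-selected RNA of the arch, the paired outgrowth that forms the jaws, was sequenced at E9.5-E9.75 (embryonic days, 25 to 27 somites). The control group was wild-type, with 2 libraries. The other group, also with 2 libraries, was Wnt1-Cre;pMes-Bmp4, in which a Cre recombinase driven by Wnt1 regulatory sequence in the neural crest turns on a Bmp4 transgene. Neither Wnt1-Cre alone nor pMes-Bmp4 alone was among the groups, so an effect of raised Bmp4 and one of carrying either transgene cannot be told apart. Wnt1-Cre;pMes-Bmp4 is called transgenic below.

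An Id protein has a helix-loop-helix domain but lacks the basic region with which related factors grip DNA. It pairs with the widely expressed E proteins, which are basic helix-loop-helix factors, and the pair cannot bind DNA, so tissue factors such as Twist1 or Hand2 are left without their usual partner. Id genes are among the best known direct targets of BMP signalling: the BMP receptors phosphorylate Smad1, Smad5 and Smad9, which join Smad4 and bind regulatory sequence of Id genes.

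The family is shown first by the stretch of the coding sequence in which its members are most alike, because reads of such paralogs could in principle be exchanged between genes. It is the 120-base window with the highest mean identity in an alignment of the 4 coding sequences, and it lies in exon 1 of each gene, in the part that encodes the helix-loop-helix. Capitals mark the 70 bases that are the same in all 4 genes.
Id1, chr2:152736520-152736639, GRCm38, plus strand: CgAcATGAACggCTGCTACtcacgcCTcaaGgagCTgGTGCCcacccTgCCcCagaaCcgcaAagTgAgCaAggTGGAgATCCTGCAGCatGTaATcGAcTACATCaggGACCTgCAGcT
Id2, chr12:25095781-25095900, GRCm38, minus strand: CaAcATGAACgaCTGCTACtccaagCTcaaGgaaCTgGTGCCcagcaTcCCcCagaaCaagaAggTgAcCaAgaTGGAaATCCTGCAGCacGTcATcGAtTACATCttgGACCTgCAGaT
Id3, chr4:136144004-136144123, GRCm38, plus strand: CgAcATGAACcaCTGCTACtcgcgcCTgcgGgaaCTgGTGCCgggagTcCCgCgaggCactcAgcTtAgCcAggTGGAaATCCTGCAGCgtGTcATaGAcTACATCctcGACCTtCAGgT
Id4, chr13:48261695-48261814, GRCm38, plus strand: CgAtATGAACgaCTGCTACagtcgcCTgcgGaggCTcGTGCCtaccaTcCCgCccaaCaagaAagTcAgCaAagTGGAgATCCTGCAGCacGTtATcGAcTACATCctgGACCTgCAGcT

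Within this window the pairs of genes were 70.8% to 80.8% identical, with Id1 and Id2 most alike and Id1 and Id3 least. Over the whole aligned coding sequence identity was 58.5% to 62.9%. The longest run of bases that any pair of the 4 transcripts shared without a mismatch was 19 bases, between Id2 and Id3. The genes are unlinked, on chromosomes 2, 12, 4 and 13 for Id1, Id2, Id3 and Id4, and each symbol occurs once in the GENCODE annotation. In GRCm38, Id1 spans 152736251 to 152737410, Id2 25093799 to 25097140, Id3 136143497 to 136145755 and Id4 48261228 to 48266026. At Id4, A330033J07Rik and Gm49291 are annotated on the opposite strand and overlap it by 1396 and 1364 bases. No source states whether counting used the strand, and A330033J07Rik was at 1.48, 2.06, 1.07 and 0 over the 4 libraries, against at least 203.6 for Id4.

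Read totals were 47849092 and 33763574 in the wild-type libraries and 31404494 and 29607541 in the Wnt1-Cre;pMes-Bmp4 libraries. Values below are normalized read counts, that is, reads divided by a size factor per library. All 12 crest mesenchyme markers listed were above the minimum mean of 10 (2 higher, Prrx2 and Alx1, and 2 lower, Tfap2a and Foxc1), and 0 of 9 Hox genes of more posterior arches were. Of 16746 genes tested with limma, 498 were higher and 884 lower in Wnt1-Cre;pMes-Bmp4 at an adjusted p under 0.05. With scaling to library totals the split was 613 higher and 702 lower. RNA of a whole arch cannot separate more cells that express a gene from more RNA in each of them.

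All 4 Id genes were higher in Wnt1-Cre;pMes-Bmp4, by 1.52 to 2.12 times. They passed in limma 4 of 4 times, against 2.97% of all genes tested that were called higher and 8.25% called in either direction. With edgeR, which called 2.44% of genes higher and 5.46% lower, Id1, Id2 and Id4 passed, and with DESeq2, which called 7.37% higher and 9.39% lower, all 4 did. In each of the 4 both transgenic libraries lay above both wild-type libraries, which was so for 30.0% of all genes tested. The median log2 fold change of the 4 was 0.86, beside 0.02 over all genes tested. The comparison sets these BMP targets in Wnt1-Cre;pMes-Bmp4 against wild-type. It cannot tell a response to extra Bmp4 from an effect of carrying either transgene. Bmp4 itself measured 681.7 and 437.1 in the 2 wild-type libraries, against 2656 and 1745 in transgenic libraries 1 and 2 (log2 fold change 1.98, limma adjusted p 0.0211), with reads of the transgene and of the gene's own locus not told apart.

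**Figure D1:**
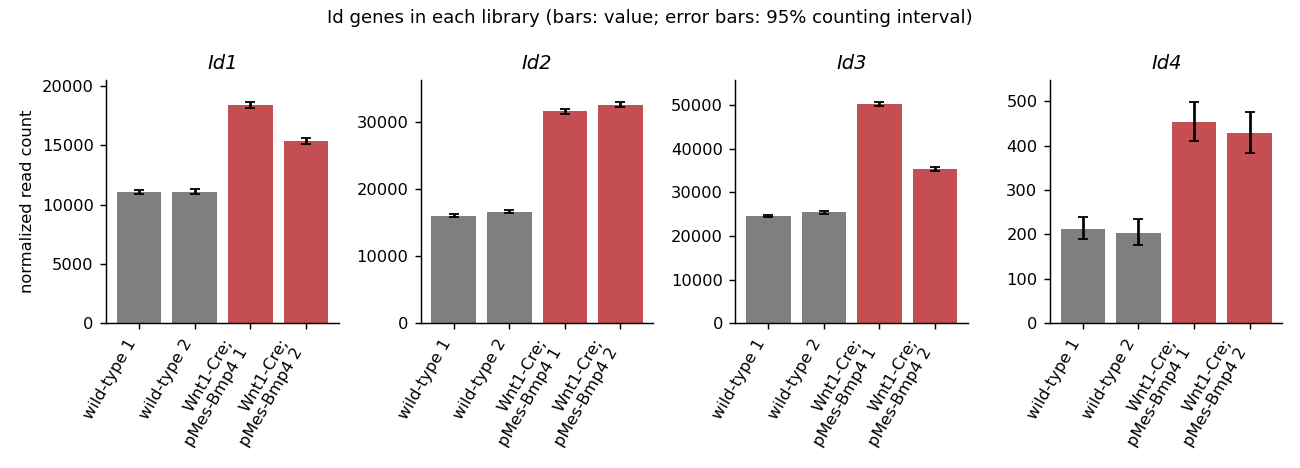
Normalized read count of each Id gene (vertical axes, 1 panel per gene) in the 2 wild-type libraries (grey) and the 2 Wnt1-Cre;pMes-Bmp4 libraries (red), with 95% Poisson counting intervals as error bars. Every red bar stands above both grey bars of its panel, and the red bars of Id3 differ most from each other, at 50239 and 35276.

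Id1, the family member most often used as a readout of BMP activity, measured 11072 and 11086 in the 2 wild-type libraries, against 18381 and 15374 in transgenic libraries 1 and 2. The wild-type libraries were nearly equal, and the lower transgenic library was still 1.39 times the higher wild-type one. The mean went from 11079 ± 10.2 to 16878 ± 2127 (SD, n = 2 each). This is a log2 fold change of 0.60 ± 0.13 (SE; 95% interval 0.29 to 0.92), and the limma adjusted p was 0.0418.

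Id2, which also binds proteins of the retinoblastoma family, measured 15988 and 16631 in the 2 wild-type libraries, against 31568 and 32548 in transgenic libraries 1 and 2. Libraries of a group were close to each other in both genotypes, and the groups were far apart. The mean went from 16310 ± 455 to 32058 ± 693 (SD, n = 2 each), 1.97-fold higher. Its log2 fold change of 0.98 ± 0.12 (SE) had a 95% interval of 0.70 to 1.25 and the smallest limma adjusted p of the family, 0.0194.

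Id3, with the most reads of the family, measured 24520 and 25445 in the 2 wild-type libraries, against 50239 and 35276 in transgenic libraries 1 and 2. The transgenic libraries differed from each other by more than the wild-type libraries did, with library 1 the higher. The mean went from 24982 ± 654 to 42758 ± 10580 (SD, n = 2 each), 1.71-fold higher. The log2 fold change was 0.75 ± 0.18 (SE; 95% interval 0.33 to 1.18), and the limma adjusted p was 0.0485, close to the threshold.

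Id4, a family member best known from neural progenitors, was the scarcest. It measured 212.9 and 203.6 in the 2 wild-type libraries, against 453.3 and 428.0 in transgenic libraries 1 and 2. These values rest on 198 to 425 reads per library, and their 95% counting intervals, which cover counting error only, ran from 176.3 to 239.0 over the wild-type libraries and from 384.5 to 498.5 over the transgenic ones. The groups were apart by more than that error. The mean went from 208.3 ± 6.53 to 440.6 ± 17.9 (SD, n = 2 each), 2.12-fold higher, with a log2 fold change of 1.08 ± 0.19 (SE), a 95% interval of 0.63 to 1.52 and a limma adjusted p of 0.0268.

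**Figure D2:**
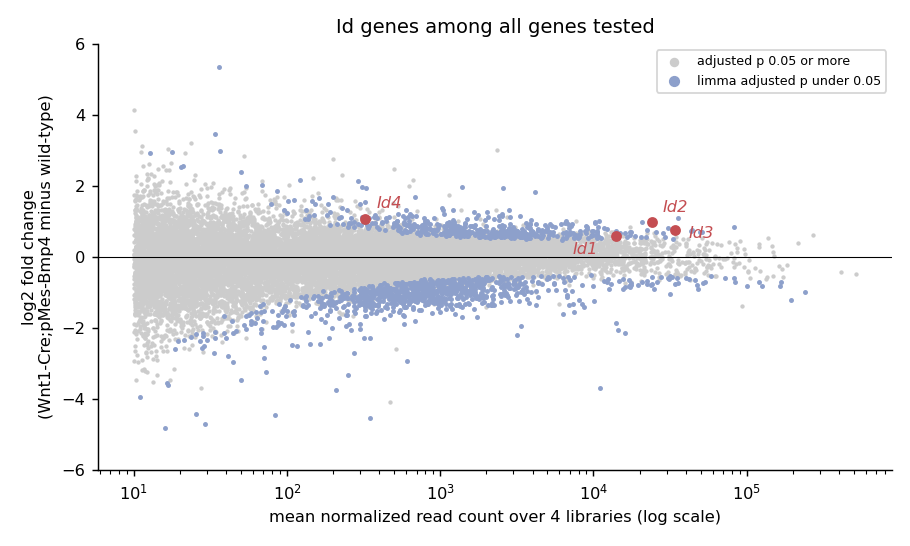
Each point is 1 gene tested, with its mean normalized read count over the 4 libraries on a log scale (horizontal axis) and its log2 fold change, Wnt1-Cre;pMes-Bmp4 minus wild-type (vertical axis). Blue points passed in limma, and the 4 Id genes are in red: Id1, Id2 and Id3 sit at the right among highly expressed genes, with log2 fold changes of 0.60, 0.98 and 0.75, and Id4 among moderately expressed genes at 1.08.

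Set among all 16746 genes tested, 514 genes had a larger log2 fold change than Id4, 675 a larger one than Id2, 1242 a larger one than Id3 and 1992 a larger one than Id1. Between the wild-type libraries the Id genes moved little: library 2 minus library 1 was 0.00, 0.06, 0.05 and -0.06 on the log2 scale for Id1, Id2, Id3 and Id4, where the median absolute difference over all genes tested was 0.21. Between the transgenic libraries the same difference was -0.26 for Id1, 0.04 for Id2, -0.51 for Id3 and -0.08 for Id4, where the median absolute difference was 0.29. Id3 alone of the 4 thus differed between the transgenic libraries by more than that median. Library 1 was the one with more reads of Bmp4, Id1 and Id3, while Id2 was slightly higher in library 2.

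The calls differed in how well they held. Transcript length moved with the group difference in these libraries, and after a spline on length was subtracted Id2 and Id4 still passed, at 0.76 and 1.08 on the log2 scale (limma adjusted p 0.0465 and 0.0453). Id1 and Id3, at 0.41 and 0.55, missed the threshold (limma adjusted p 0.218 and 0.200); in that fit 0.659% of genes were called higher. With GC content corrected as well, which left 3.98% of genes higher and 4.57% lower, Id2 and Id4 passed and Id1 and Id3 did not. The Id genes did not pass in limma where 1 wild-type library was left out, and passed where 1 transgenic library was. Calls over all genes followed the same split. Each such fit takes its residual spread from the group that kept 2 libraries. The log2 fold change of Id3 was 0.50 without Wnt1-Cre;pMes-Bmp4 library 1 and 1.01 without library 2. All 4 were positive in each of 20 other settings, many of which could not have changed the sign.

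**Figure D3:**
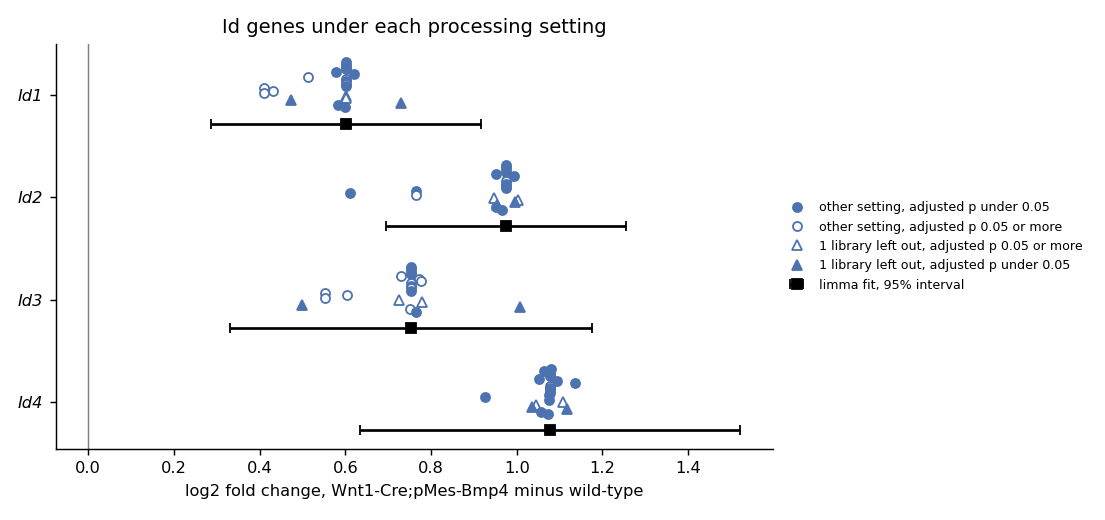
Log2 fold change of each Id gene, Wnt1-Cre;pMes-Bmp4 minus wild-type (horizontal axis), in the limma fit with its 95% interval (black squares), under other processing settings (circles) and with 1 library left out (triangles); open symbols did not reach an adjusted p under 0.05. No symbol lies at or below 0, and Id1 and Id3 carry more open circles than Id2 and Id4.

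Whether 1 Id gene changed more than another was asked from the log2 ratio of their values within each library, over 6 pairs. The ratio of Id2 to Id1 was 0.53 and 0.59 for wild-type, against 0.78 and 1.08 for transgenic libraries, a difference of 0.37. The ratio of Id4 to Id1 rose by 0.48 and that of Id4 to Id3 by 0.32. These ratios are not per length, so only their change between genotypes can be read. In those 3 pairs the groups did not overlap, and in the other 3 pairs they did. With 2 libraries against 2 the exact two-sided permutation test cannot give a p below 0.333, which was the value for the 3 pairs that did not overlap (0.667 after Benjamini-Hochberg adjustment over the 6). That test could not reach 0.05 for any pair, whatever the values.

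The levels of the 4 genes were compared per kilobase of the longest transcript, of 1160, 1969, 1278 and 3849 bases for Id1, Id2, Id3 and Id4. In wild-type Id3 was highest, at 19548 ± 512 normalized reads per kilobase (SD, n = 2), followed by Id1 at 9551 ± 8.77 and Id2 at 8283 ± 231. Id4 was far below, at 54.1 ± 1.70. In Wnt1-Cre;pMes-Bmp4 the order was Id3 at 33457 ± 8279, Id2 at 16281 ± 352, Id1 at 14550 ± 1833 and Id4 at 114.5 ± 4.64. Id2 and Id1 had thus changed places, but transgenic library 1 read 16032 for Id2 and 15846 for Id1, so that these neighbours were not apart by more than the spread of Id1. The order of Id1 and Id2 depended on the transcript length used. With the union of exons Id1 was above Id2 in mean level for both genotypes (9551 and 6690 in wild-type, 14550 and 13149 in transgenic libraries). With the shortest coding transcript Id2 was above Id1 for both (17025 and 11862, then 33463 and 18070), and in transgenic libraries level with Id3 at 33457. Id4 was lowest with each of the 3 lengths. Among 16225 genes tested and with a known length, Id3 ranked at place 198 in wild-type and moved to place 97 in transgenic libraries, and Id4 at place 10035 and 7758.

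Of the summed per-kilobase signal of the family, Id3 made up 52.0% and 52.4% for wild-type, against 55.1% and 48.0% for transgenic libraries, so its groups overlapped. Id1 made up 25.9% and 25.2% for wild-type, against 22.2% and 23.1% for transgenic libraries, all transgenic values being lower. Id2 went from 22.0% and 22.2% to 22.5% and 28.7%, and Id4 from 0.150% and 0.139% to 0.165% and 0.193%. The exact two-sided permutation p was 0.333 for Id1, Id2 and Id4, the smallest that 2 against 2 can give, and 1 for Id3, or 0.444 and 1 after Benjamini-Hochberg adjustment over the 4. The summed signal of the family per kilobase was 36907 and 37967 for wild-type, against 71307 and 57498 for transgenic libraries.

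None of the genes for E proteins, the direct partners of Id proteins, was called higher. Of Tcf3, Tcf4 and Tcf12 (the genes of E2A, E2-2 and HEB), 1 was lower and 0 were higher, where 5.28% of all genes tested were called lower. Tcf4 measured 4788 and 5920 in the 2 wild-type libraries, against 2247 and 2115 in transgenic libraries 1 and 2, with no overlap between the groups, as for 29.7% of all genes tested in this direction. It was 2.46-fold lower, with a log2 difference of -1.29 ± 0.15 (SE; limma adjusted p 0.0194). Its longest transcript, of 8577 bases, is much longer than those of the Id genes. Corrected for length, where 0.998% of genes were called lower, it still passed, at -0.75 (limma adjusted p 0.0465). Tcf3 measured 6156 and 7256 in the 2 wild-type libraries, against 6359 and 3853 in transgenic libraries 1 and 2, with overlapping groups and a log2 fold change of -0.43 that did not pass (limma adjusted p 0.263). Tcf12 was at 6312 and 6657 against 5207 and 5732, with a log2 fold change of -0.25 that did not pass either (limma adjusted p 0.237). After the length correction Tcf12 turned to 0.12 and Tcf3 stood at -0.59. With GC content corrected as well they stood at 0.01 and -0.22, and neither passed in either fit.

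Per kilobase, the summed signal of the 4 Id genes was 10.1 and 9.03 times that of the 3 E protein genes in the wild-type libraries, and 22.0 and 23.3 times in the transgenic ones. The groups did not overlap. The exact two-sided permutation p was 0.333, the smallest the design allows, and the ratio was added after the values of its parts were seen. With the union of exons as the length the ratios were 14.2 and 12.5 for wild-type, against 28.6 and 33.1 for transgenic libraries. The ratio sets short transcripts over long ones, and the share of it that moves with transcript length was not tested.

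**Figure D4:**
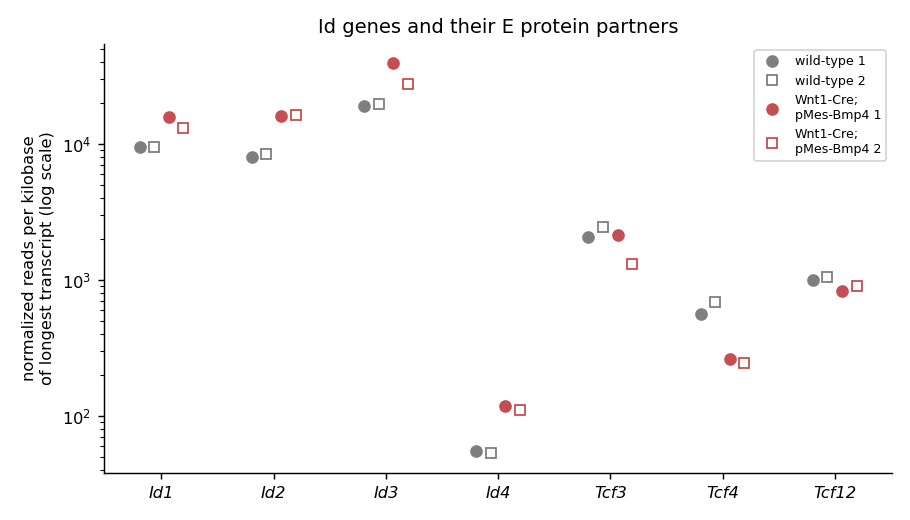
Normalized reads per kilobase of the longest transcript (vertical axis, log scale) of the 4 Id genes and 3 E protein genes in each library: wild-type in grey, Wnt1-Cre;pMes-Bmp4 in red, library 1 as filled circles and library 2 as open squares. For the Id genes the red points lie above the grey ones; for Tcf4 they lie below; Tcf3 overlaps.

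The tissue factors that pair with E proteins were not called in either direction in limma without corrections. Over all genes tested that fit called 2.97% higher and 5.28% lower. Of 30 such class II factors listed, 17 were expressed above the minimum; 0 were higher and 0 were lower in limma, 7 had a positive and 10 a negative log2 fold change, and the median was -0.27. Twist1, a regulator of crest mesenchyme and the most abundant of them, measured 3324 and 4162 in the 2 wild-type libraries, against 2556 and 2121 in transgenic libraries 1 and 2. Its groups did not overlap, and its log2 fold change of -0.68 ± 0.16 (SE) missed the threshold with a limma adjusted p of 0.0502. Tcf21, a factor of cranial muscle progenitors, had 0.79 ± 0.20 (SE) and a limma adjusted p of 0.0557. By an unadjusted p under 0.05, 4816 of all genes tested would have passed. The length correction put Twist1 at -0.89, still short of the threshold (limma adjusted p 0.0601). Twist1 was called lower once GC content was corrected too, at -0.66 (limma adjusted p 0.0256), where 4.57% of genes were lower. Tcf21 passed in neither corrected fit (limma adjusted p 0.145 and 0.0951).

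Upstream of the Id genes, the components of the BMP pathway were read by role. Of 6 ligand genes tested only Bmp4, which the transgene carries, was called higher, and Bmp5 was at 107.6 and 53.5 in wild-type against 132.2 and 151.6, with a limma adjusted p of 0.170. Of 7 receptor genes, Bmpr2, the main type II receptor, was lower and 6 did not pass, where 5.28% of all genes tested were called lower. It measured 815.9 and 942.1 in the 2 wild-type libraries, against 245.3 and 312.8 in transgenic libraries 1 and 2, a log2 difference of -1.66 ± 0.20 (SE; limma adjusted p 0.0194). Of the 4 Smads, Smad5 was lower, measuring 2069 and 2390 in the 2 wild-type libraries against 1128 and 1120 in the transgenic ones, with a log2 difference of -0.98 ± 0.14 (SE; limma adjusted p 0.0218). Neither Bmpr2 nor Smad5 passed after the length correction, at -0.96 and -0.59 on the log2 scale (limma adjusted p 0.0577 and 0.0648), but both passed with length and GC corrected together, at -1.05 and -0.69 (limma adjusted p 0.0178 and 0.0202).

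Smad9 was scarce, at 14.1 and 20.6 in wild-type against 50.1 and 41.2 in Wnt1-Cre;pMes-Bmp4, and did not pass (limma adjusted p 0.103). Smad1 and Smad4, which carry the signal with Smad5, stood at -0.15 and -0.21 on the log2 scale, neither passing. Among the receptor genes 1, Acvrl1, had a positive log2 fold change (0.80, limma adjusted p 0.125) and 6 a negative one. Acvr2b, at -0.71, did not pass (limma adjusted p 0.0943), but with length and GC corrected together it did, at -0.77 (limma adjusted p 0.0358). No receptor or Smad gene of the list was called higher, where 2.97% of all genes tested were. Lists this short are too small to read that as a lack of rise.

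Beside the Id genes, 16 other genes known to respond to BMP were tested. Of these 4 rose, 0 fell and 12 missed the threshold, where 2.97% of all genes tested were called higher and 5.28% lower; the median log2 fold change was 0.27. Msx2 and Bambi had larger log2 fold changes than any Id gene, at 1.95 ± 0.19 and 1.84 ± 0.15 (SE), as did Gata3 at 1.56 ± 0.24 and Msx1 at 1.16 ± 0.22. Their limma adjusted p values were 0.0182, 0.0182, 0.0233 and 0.0297. After the length correction Msx1 did not pass (0.95, limma adjusted p 0.0739), and with GC content corrected as well it did (1.13, limma adjusted p 0.0128). The feedback inhibitors Smad6 and Smad7, which like the Id genes are direct Smad targets, had 0.38 and -0.20 and missed the threshold (limma adjusted p 0.356 and 0.753).

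**Figure D5:**
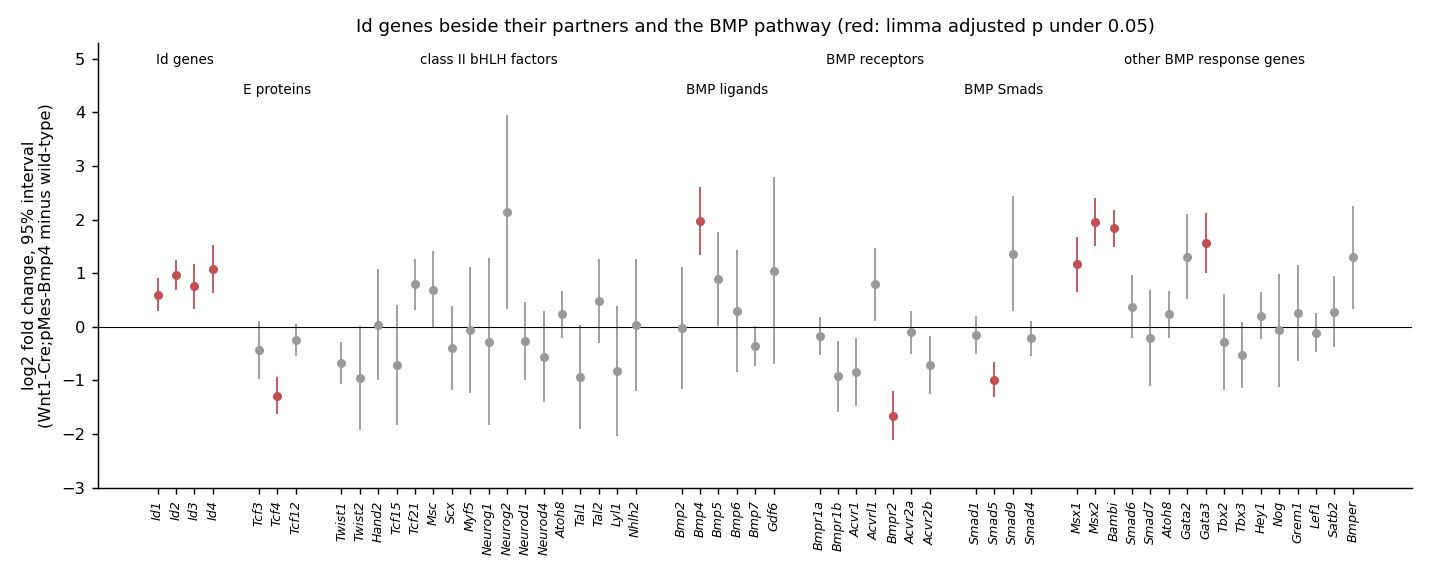
Log2 fold change with its 95% interval, Wnt1-Cre;pMes-Bmp4 minus wild-type (vertical axis), of the Id genes, their E protein and class II partners, and the ligands, receptors, Smads and other response genes of the BMP pathway; red points passed in limma. The 4 Id genes are red and above 0, Tcf4, Bmpr2 and Smad5 are red and below 0, and no class II factor is red.

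Upstream sequence was read from the RefSeq promoter table (GRCm38.p6), which gives 250 bases before and 50 after the start of a gene and has Id2, Id3 and Id4. The palindrome GGCGCC, a sequence that BMP Smads can bind, was searched on both strands. It occurred 1 time in Id2, 231 bases before the start, 1 time in Id4, 148 bases before the start, and 0 times in Id3. It is present in 11.96% of 27025 promoters of the same length and in 21.4% of those of genes tested. The upstream 250 bases of Id4 and 30 bases around the match of Id2 are shown because these were the members with the largest log2 fold changes; capitals mark GGCGCC. The Id4 stretch overlaps no annotated exon and lies within the opposite-strand genes A330033J07Rik and Gm49291, and the Id2 stretch lies in an intron of a longer Id2 transcript.
Id4, chr13:48260866-48261115, GRCm38.p6, plus strand: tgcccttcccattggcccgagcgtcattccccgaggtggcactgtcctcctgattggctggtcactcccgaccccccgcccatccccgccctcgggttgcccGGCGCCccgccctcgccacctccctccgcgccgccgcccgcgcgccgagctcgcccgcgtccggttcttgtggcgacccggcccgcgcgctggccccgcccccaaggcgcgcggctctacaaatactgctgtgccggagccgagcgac
Id2, chr12:25096306-25096335, GRCm38.p6, minus strand: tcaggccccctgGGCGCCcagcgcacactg

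The short Smad core GTCT, on both strands, occurred 1 time in Id2, 3 times in Id3 and 0 times in Id4, and is present in 88.0% of promoters. The composite of GGCGNC and, 5 bases further on, GTCT, which joins both kinds of half-site and is found in 0.259% of promoters, had 0 matches in the 3 windows. The E-box CANNTG, the site of E protein pairs, occurred 1 time in Id2 and 0 times in Id3 and Id4, and is present in 72.1% of promoters. The CCAAT box occurred 3 times in Id2, 2 times in Id4 and 0 times in Id3, and is present in 37.9%. CG dinucleotides numbered 21 in Id2, 19 in Id3 and 39 in Id4, at percentiles 75.0, 71.6 and 95.7 of all promoters, whose median was 7. A match describes the letters of a window, and 250 bases do not cover enhancers farther away.

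Of the 8 nearest expressed genes on either side of the Id genes, 0 were called higher, 1 was lower and 7 did not pass. Over all genes tested 2.97% were called higher and 5.28% lower, and 8 genes are too few to tell these counts from those shares. The lower one was Rpl11, a ribosomal protein gene 90.1 kb from Id3, measuring 37283 and 36962 in the 2 wild-type libraries against 23692 and 25388 in the transgenic ones (log2 fold change -0.60, limma adjusted p 0.0355). On the other side of Id3, E2f2, 26.6 kb away, had a log2 fold change of -0.78 (limma adjusted p 0.143). The neighbour closest to any Id gene was Cox4i2, 16.8 kb after Id1, at 102.4 and 88.5 in wild-type against 214.4 and 161.3, with a log2 fold change of 0.96 and a limma adjusted p of 0.0708. H13, on the other side of Id1, had 0.24. Around Id2, Kidins220 at 30.6 kb had -0.85 and Rnf144a, as far as 1204 kb away, had -0.48. Around Id4, Rnf144b at 1013 kb had -0.32 and Zfp169 at 221.6 kb had -1.03. None of these passed, and the nearest tested gene was thus not always close.

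Likeness of pattern was measured as the Euclidean distance between the centred log2 values of 2 genes over the 4 libraries, among 12409 other genes with a mean of at least 50. It is a description over 4 libraries only. Id2 and Id4 were the closest pair of the family, at 0.16, with 33 genes nearer to Id2 and 14 nearer to Id4. Id1 and Id3 came next, at 0.24, with 349 genes nearer to Id1 and 41 nearer to Id3. The other pairs lay at 0.43 to 0.49, against a median distance to all genes of 0.70 from Id1 and 0.89 from Id3.

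For the nearest genes outside the family, predicted genes and pseudogenes were left out by name, which was not done in the counts of nearer genes above. The 3 genes then nearest to Id1 were Gga2, Azin2 and Nsun5, with distances of 0.02, 0.04 and 0.05. Ctps2, Ptges and Armt1 were nearest to Id2, with distances of 0.05, 0.07 and 0.08. Man1c1, Unc5b and Mical1 were nearest to Id3, with distances of 0.05, 0.08 and 0.12. Hpgd, Tvp23a and Pea15a were nearest to Id4, with distances of 0.07, 0.09 and 0.09. Pea15a, for example, read 1092 and 1113 for wild-type, against 2338 and 2351 for transgenic libraries.

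Id genes are also expressed in endothelium, ectoderm and glia, so markers of these cells are given beside their rise. Of 11 epithelium markers tested 2 were higher and 0 lower, where 2.97% of all genes tested were called higher. Of the 11, 8 had a positive log2 fold change and 3 a negative one, Krt15 at -0.08, Esrp1 at -0.12 and Grhl2 at -0.06. The 2 that passed were Krt18, at 0.87, and Krt14, at 0.98 (limma adjusted p 0.0309 and 0.0433). Neither passed after the length correction (limma adjusted p 0.0765 and 0.0974), and both did with GC content corrected as well (0.0283 and 0.0358). The summed level of the 12 listed epithelium markers was 27416 and 20687 for wild-type, against 36759 and 34035 for transgenic libraries. Of 10 endothelium markers 0 passed, 7 had a positive log2 fold change, and their sum was 5636 and 5612 for wild-type, against 7041 and 6969 for transgenic libraries; Emcn was nearest to the threshold, with 0.59 and a limma adjusted p of 0.0583. Sox10, the defining factor of glial crest, had a log2 fold change of -1.16 and did not pass (limma adjusted p 0.0721). Foxd3 and Erbb3 of the same list had -1.95 and -0.38, while Fabp7 had 0.18, none of them passing. The glial list thus did not move in 1 direction, and 1 further tested marker of it is not reported here. The part of these cell types in the rise of the Id genes was not tested.

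Other cell types showed no called marker or a lower one. Markers of neural tube, ganglion neurons, cranial muscle mesoderm, heart and myeloid cells were tested (2, 8, 5, 6 and 2), and 0 passed in either direction. Over all genes tested 2.97% were called higher and 5.28% lower, and 4816 had an unadjusted p under 0.05. The neural tube marker Olig2 was at 0 in all 4 libraries. Of 7 erythroid markers 2 were lower, Hbb-y and Hba-x, where 5.28% of all genes tested were called lower. After the length correction their limma adjusted p was 0.0505 and 0.0485. The summed level of the 7 was 674032 and 613209 for wild-type, against 340898 and 380898 for transgenic libraries. With totals that include these reads as the scale, Id1, Id2 and Id3 had log2 fold changes of 0.62, 0.99 and 0.77.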

How the data were processed

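Per the labels' protocols, the 4 arch libraries were made from polyA-selected RNA by random priming. The labels do not say that libraries of a group came from separate embryos or litters, so the p-values reflect the spread of these samples alone, and that spread may be technical. Per the file headers the authors deposited featureCounts output, here as a signal normalized with 1 size factor for each library. fastp 0.21.0 and mm10 are named in the submitters' processing notes, while aligner, annotation and strand setting are not given in the sources consulted. With the smallest positive value of a column taken as 1 read, 100% of values came out whole (within 0.01); edgeR on these reads called 409 genes higher and 915 lower.

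Genes were tested with limma 3.58.1 (R 4.3.3; trended prior) on log2(value + 1), a scale that understates changes of low genes, for the 16746 genes whose mean reached 10, two-sided, with Benjamini-Hochberg adjustment over all of them. It had 2 residual and 5.26 prior degrees of freedom. edgeR 4.0.16, DESeq2 1.42.0, other scalings, filters, pseudocounts, a length spline (4 degrees of freedom, fitted where the mean reached 50), a replicate block and left-out libraries were alternatives. Lengths came from GENCODE M21, found for 96.9% of genes tested. The steps were tested on simulated data.

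The Id genes and the lists were chosen with earlier results of these data known. By rule, the genes to be named were the Id genes, Bmp4, the E proteins and the nearest tested neighbour on each side. The rule added the 3 most alike genes per Id gene, with predicted genes and pseudogenes left out. From each other list it took at most 6 called members in order of p, or the first 2 if fewer than 2 passed. Not every gene it gave is named, for example Bmpr1b, Esam and Sox2 are not. Names beyond this rule, such as Acvrl1, Acvr2b, Smad1, Smad4, Smad6 and Smad7, were chosen after their values were seen. Coding sequences were aligned with MAFFT. The result of 1 marker of the glial crest list is not reported here.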

Additional observations from a re-analysis of the deposited data

How the results depend on the processing

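Log2 fold changes of the 4 Id genes were positive in all 20 alternatives each, but much of this was fixed in advance. Filters, the limma trend, robust limma and the replicate block leave a log2 fold change unchanged. Leaving 1 library out cannot turn it negative where both transgenic libraries lie above both wild-type ones. Of the 16 alternatives with all 4 libraries, Id4 passed in 15, Id2 in 14, Id1 in 10 and Id3 in 7. Without the limma trend none passed (adjusted p 0.178 for Id1 at 0.60, 0.145 for Id2 at 0.98, 0.189 for Id3 at 0.75 and 0.145 for Id4 at 1.08), and 0 genes were higher and 0 lower, with 3925 at an unadjusted p under 0.05. Id1 did not pass after quantile normalization (0.51), the length correction (0.41) or the length and GC correction (0.43), and Id3 did not after quantile normalization (0.78), TMM (0.73) or total-count scaling (0.77), with edgeR (0.75), or after the length (0.55) or length and GC correction (0.60). With the replicate block, Id1 (0.60) and Id3 (0.75) did not pass, and 165 genes were higher and 543 lower; with the replicate block and the length correction Id1 (0.41), Id2 (0.76) and Id3 (0.55) did not, and 237 were higher and 350 lower. Libraries share only a number: deviations of same-numbered libraries correlated at -0.27, and pairing them crosswise (added after seeing the data) called 1763 genes higher, 1952 lower. Counts were 107 higher and 162 lower after the length correction, 1234 and 1573 with DESeq2, and 809 higher with robust limma.

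With 1 library left out, the lone library of its group is assumed to vary like the other group. The log2 fold change then ranged from 0.47 to 0.73 for Id1, 0.95 to 1.00 for Id2, 0.50 to 1.01 for Id3 and 1.04 to 1.12 for Id4. Limma adjusted p values reached 0.432, 0.348, 0.422 and 0.348, in each case without wild-type replicate 2. Genes called higher ranged from 0 to 2675 and lower from 0 to 2719. The difference of Id3 minus Id2, -0.22 with all libraries, ranged from -0.50 to 0.055, and the change in the share of Id3, -0.65 percentage points with all, from -4.21 to 2.92; both turned positive without Wnt1-Cre;pMes-Bmp4 replicate 2. The cause of these changes was not tested.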

Other observations

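Other proteins that act on Id proteins, and cell cycle genes that lie downstream of E proteins, were read as well. Of the 10 tested genes for other partners, stabilisers or degraders of Id proteins, 1 fell, 0 rose and the remaining 9 missed the threshold. Over all genes tested 5.28% were called lower and 2.97% higher. The lower one was Elk4, an ETS factor of the kind Id proteins can bind, measuring 428.0 and 484.4 in the 2 wild-type libraries against 231.4 and 187.9 in the transgenic ones (log2 fold change -1.12, limma adjusted p 0.0293; after the length correction -1.01 and 0.0505, and with GC content corrected as well -1.02 and 0.0221). Usp1, the deubiquitinase that stabilises Id proteins, had -0.31 (limma adjusted p 0.144). It did not pass after the length correction either (-0.37, limma adjusted p 0.150), and with GC content corrected as well it did (-0.51, limma adjusted p 0.0306). Rb1, the partner of Id2, had -0.25 (limma adjusted p 0.551).

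Of 4 other transcription factors reported to act on Id genes, Myc was lower, where 5.28% of all genes tested were called lower. It measured 1999 and 2762 in the 2 wild-type libraries against 1425 and 1382 in the transgenic ones (log2 fold change -0.74, limma adjusted p 0.0484). After the length correction it stood at -0.94 (limma adjusted p 0.0520), and with GC content corrected as well at -0.92 (limma adjusted p 0.0244). Atf3 and Egr1 did not pass, and their transgenic libraries differed widely, at 612.2 and 197.6 for Atf3 and at 4109 and 1120 for Egr1. In both, as in Id1 and Id3, Wnt1-Cre;pMes-Bmp4 library 1 was the higher. Of 3 cyclin-dependent kinase inhibitor genes tested, 0 passed in either direction, where 8.25% of all genes tested did. Cdkn1a had a log2 fold change of 0.26 and Cdkn1b of -0.20. Cdkn2a and Cdkn2b were under the minimum level.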
